A study of Mus musculus with 16 samples.

Results

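The genes described here encode 10 proteins of the node of Ranvier and the flanking paranode and juxtaparanode: Cntnap1, Cntn1, Nfasc, Nrcam, Gldn, Ank3, Sptbn4, Cntnap2, Cntn2 and Cldn19. They were chosen by name for these domains, and all 10 were found among the 25719 genes listed for each library. RNA was sequenced from trigeminal ganglia of wild-type (WT) mice and of mice lacking Nogo-A (KO), taken on embryonic day 14 (E14) or postnatal day 25 (P25). There were 4 libraries in each of the 4 groups, every library was made from 1 whole ganglion, and no treatment was given in any group. The labels give neither the strain, the sex nor the way the KO was made. Rtn4 encodes Nogo-A, its longest product, which limits neurite growth.

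In a myelinated axon the node is a short gap in the myelin where voltage-gated sodium channels are held by ankyrin-G and beta-IV spectrin. At the node of a peripheral nerve, gliomedin from the Schwann cell binds neurofascin and NrCAM on the axon. At the paranode, Caspr and contactin-1 on the axon bind the glial form of neurofascin, and at the juxtaparanode Caspr2 and contactin-2 hold potassium channels. The trigeminal ganglion contains sensory neurons of the face with satellite glia around their cell bodies and Schwann cells along their axons. Myelination of peripheral nerves in mice takes place mainly after birth, so the E14 groups precede it and the P25 groups follow its onset.

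Levels are given as CPM, a gene's counts scaled to the same library total in every sample, computed from estimated counts with library totals that ran from 15532400 to 29562400 counts before TMM scaling. Rtn4 was measured as a gene total that includes shorter transcripts and so does not check the KO labels. Its mean was 360 ± 164 CPM in WT and 298 ± 74.7 CPM in KO at E14, and 489 ± 58.7 and 368 ± 17.9 CPM at P25 (SD, n = 4). The sensory neuron markers Isl1, Pou4f1 and Prph were present in all 16 libraries, with Pou4f1 between 141 and 231 CPM. Mean Isl1 was 155 CPM at E14 and 52.2 CPM at P25 in WT, and 159.7 and 54.5 CPM in KO. Mean Prph was 3923 and 2046 CPM in WT and 3932 and 2056 CPM in KO. The full list of 20 neuron markers did not go down with Isl1 and Prph. Its summed level ran from 18350 to 23441 CPM in E14 WT and from 22448 to 27018 CPM in P25 WT. In KO it ran from 19774 to 22533 CPM at E14 and from 22108 to 24040 CPM at P25. Of the 20 markers, 9 were called as higher at P25 and 5 as lower in WT, beside 29.7% and 29.8% of all genes. The part of the neurons' share of the ganglion in the members' stage changes was not tested. The deviations of each library from the mean of the libraries of its stage were set against GC content and length of the transcript. These accounted for 55.9% of the variance in E14 WT replicate 2 and 42.2% in P25 WT replicate 4, the largest shares. The share in the other 14 libraries ran from 1.45% to 35.8%. It was 35.8% in E14 WT replicate 3, 32.9% in E14 WT replicate 4 and 32.2% in E14 KO replicate 2. In a whole ganglion, fewer cells of a type and less RNA per cell cannot be told apart. A gene total also adds the isoforms made by different cells, so the axonal and glial forms of neurofascin, or the large and small forms of ankyrin-G, were not separated.

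The promoters of 3 members are shown because their genes rose between the stages: Gldn and Cldn19 from near 0, and Cntn1 as an axonal gene already present at E14. The sequences are those upstream of the transcript start in RefSeq (GRCm38.p6), read 5′ to 3′ along the plus strand, on which all 3 genes lie. The Cldn19 window was ended where an exon of the GENCODE annotation begins. Capitals mark matches to the 7 motifs named after the sequences.

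Gldn, chr9:54286236-54286485: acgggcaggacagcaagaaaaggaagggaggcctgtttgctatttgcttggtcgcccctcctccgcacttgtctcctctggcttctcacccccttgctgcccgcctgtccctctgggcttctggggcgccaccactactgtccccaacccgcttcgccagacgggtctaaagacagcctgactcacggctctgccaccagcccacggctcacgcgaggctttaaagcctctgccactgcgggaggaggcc

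Cldn19, chr4:119255191-119255413: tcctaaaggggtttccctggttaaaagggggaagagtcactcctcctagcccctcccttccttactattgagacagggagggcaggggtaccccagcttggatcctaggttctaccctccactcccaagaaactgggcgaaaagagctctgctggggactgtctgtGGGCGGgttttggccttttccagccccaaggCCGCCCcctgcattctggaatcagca

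Cntn1, chr15:92050915-92051164: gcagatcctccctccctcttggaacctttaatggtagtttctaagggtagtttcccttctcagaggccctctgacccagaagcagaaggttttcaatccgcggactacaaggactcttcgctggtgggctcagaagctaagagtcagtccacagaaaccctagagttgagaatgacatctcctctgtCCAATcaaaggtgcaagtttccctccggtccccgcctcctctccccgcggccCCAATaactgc

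Windows of 250 bases were available for 8 members, 16 windows in all, and none was used for Cntnap1 or Ank3. Each motif was searched on both strands. The SOX-type motif ACAAAG was in 0 of the 16 windows and in 16.5% of all 32851 windows of the same length. ACAATG was in 2 windows, of Cntn1 and Cntnap2, against 10.7% of all windows. The EGR-type motif GCGTGGG was in 1 window, of Sptbn4, against 4.30%, and GCGGGGGCG was in 2 windows of Sptbn4 against 2.57%. CCAAT was in 5 windows against 33.8%, and TATAAA in 1 against 12.4%. The GC box GGGCGG, which was added to the search after the results of the other 6 motifs were known, was in 9 windows against 32.7%. It can overlap GCGGGGGCG, as both do in Sptbn4. The windows with it belong to Cldn19, Cntnap2, Nfasc, Nrcam and Sptbn4, and those of Cldn19 overlap, so the windows are not independent. Their GC content ran from 48.4% to 75.2%, where the median of all windows was 52.4%. The Gldn and Cntn2 windows held none of the 7 motifs, and the only matches in the Cldn19 windows were to the GC box. A match is a run of letters, and no binding was measured.

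Between E14 and P25 Cldn19 and Gldn rose most of the 10 in both genotypes. In WT ganglia 7 of the 10 genes were called at an adjusted p under 0.05, of which 6 were higher at P25 and 1, Cntn2, was lower. Of all 15109 genes tested, 59.6% were called in this comparison, 29.7% as higher and 29.8% as lower. In KO ganglia 8 of the 10 were called, 7 as higher and 1 as lower, beside 59.8% of all genes, 30.6% as higher and 29.2% as lower. The share of called members, 70% in WT and 80% in KO, was thus not far from that of all genes, and 60% and 70% of the members were called as higher. The median log2 fold change of the 10 members was 1.62 in WT and 1.86 in KO, where the median of all tested genes was 0.00031 and 0.011. The libraries of the 2 stages did not overlap for 7 members in WT and 8 in KO, as was so for 50.2% and 59.8% of all genes.

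**Figure D1:**
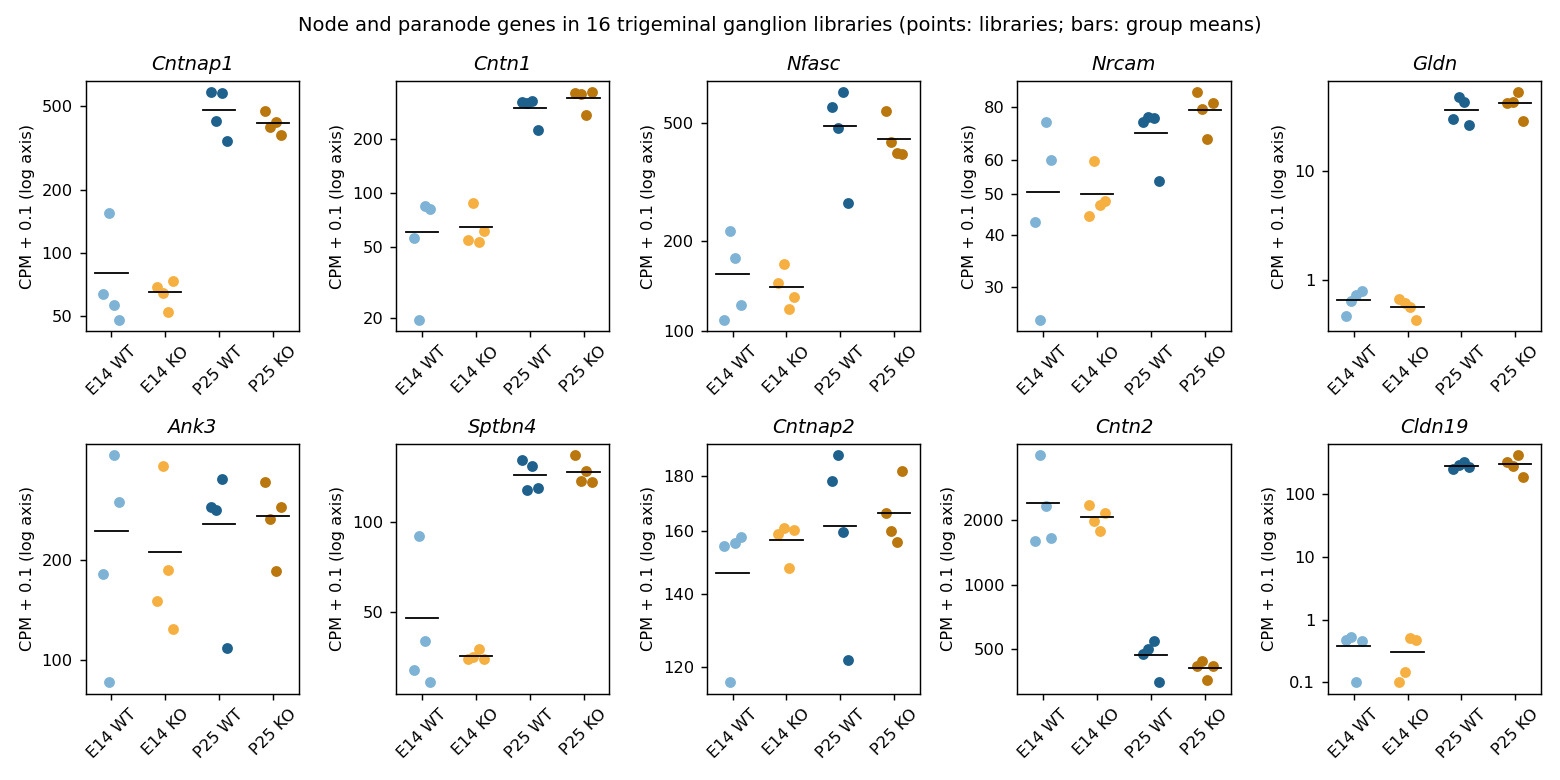
Level of each of the 10 genes in every library, in CPM plus 0.1 on a logarithmic axis with a scale of its own for each gene; points are libraries in replicate order, and horizontal bars are group means. Cldn19 and Gldn lie under 1 CPM in all E14 libraries and above 25 CPM in all P25 libraries, and Cntn2 is the only gene whose P25 libraries all lie below its E14 libraries.

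Cldn19 and Gldn, which both encode Schwann cell proteins, rose most. Cldn19 (ENSMUSG00000066058, GRCm38 chromosome 4, 119255414 to 119262438, plus strand) encodes claudin-19, a tight junction protein of noncompact Schwann cell myelin. It read 0.367, 0.427, 0 and 0.351 CPM in E14 WT replicates 1 to 4 and 252, 289, 326 and 270 CPM in P25 WT. The KO libraries gave 0, 0.0467, 0.408 and 0.381 CPM at E14 and 331, 276, 420 and 187 CPM at P25. The E14 values rest on 23 counts over the 4 WT libraries and 16 over the 4 KO libraries. In the libraries with 0 counts, 3 counts would have been 0.171 CPM in WT and 0.190 CPM in KO. From E14 to P25 its change on the log2 scale was 9.90 (SE 0.48, edgeR adjusted p = 1.57e-12) in WT and 10.45 (SE 0.50, edgeR adjusted p = 1.38e-12) in KO. Every P25 library was above every E14 library in both genotypes.

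Gldn (ENSMUSG00000046167, GRCm38 chromosome 9, 54286486 to 54341786, plus strand) encodes gliomedin, the Schwann cell ligand that gathers neurofascin at forming nodes. Its E14 libraries read 0.367, 0.549, 0.625 and 0.701 CPM in WT and 0.569, 0.513, 0.466 and 0.333 CPM in KO. Its P25 libraries read 29.5, 47.1, 42.2 and 26.0 CPM in WT and 41.8, 42.9, 52.0 and 28.1 CPM in KO. The stages did not overlap. The fitted rise was 64.0-fold in WT (95% interval 41.6 to 98.5) and 87.4-fold in KO (56.0 to 136), with edgeR adjusted p = 2.00e-12 and 1.25e-12.

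Both genes moved with markers of myelinating Schwann cells. The summed level of 13 such markers, among them Pmp22 and Prx, ran from 229.7 to 300.1 CPM in E14 WT and from 14143 to 15377 CPM in P25 WT. It ran from 237 to 277 CPM in E14 KO and from 12487 to 19774 CPM in P25 KO. Within P25 KO, replicate 3 had the highest sum and the highest Cldn19 and Gldn, and replicate 4 the lowest of all 3. Within P25 WT the sums lay closer together and the order differed. Replicate 3, with the lowest sum, had the highest Cldn19, and replicate 1, with the highest sum, had the lowest Cldn19. Gldn was highest in replicate 2 and lowest in replicate 4. The WT order of the sums was not the same with the full list of 14 markers, 1 of which is not reported here. All 13 markers were called as higher at P25 in each genotype. The share of these cells in the rise of Cldn19 and Gldn was not tested.

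Markers of oligodendrocytes and astrocytes, which form central nodes with several of the same proteins, were also higher at P25. The summed level of 15 such markers was 26.5 to 37.1 CPM in E14 WT, and 280, 143 and 338 CPM in P25 WT replicates 1, 2 and 4. In KO it was 25.2 to 38.4 CPM at E14 and 170 to 354 CPM at P25. Opalin was at 0 in all 8 E14 libraries and at most 0.464 CPM at P25. Mog was at most 0.138 CPM at E14, and ran from 0 to 10.9 CPM in P25 WT and from 4.13 to 11.4 CPM in P25 KO. Olig1 was at most 0.0458 CPM at E14, and reached 4.40 CPM in P25 WT and 3.75 CPM in P25 KO. In P25 WT replicate 3, where this sum lay within the E14 WT range and Mog was at 0, Cldn19 read 326 CPM, Gldn 42.2 CPM, Nfasc 631 CPM and Cntnap1 580 CPM. In this 1 library these 4 values lay within or above the range of the other P25 WT libraries. The part of central glia in the members' rise was not tested.

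The axonal genes of the paranode rose less steeply, from levels already measurable at E14. Cntnap1 (ENSMUSG00000017167, GRCm38 chromosome 11, 101170523 to 101190724, plus strand) encodes Caspr, the axonal protein of the paranodal junction. It read 63.6, 154, 56.4 and 47.9 CPM in E14 WT and 582, 426, 580 and 341 CPM in P25 WT. KO ganglia had 68.8, 64.4, 52.4 and 73.0 CPM at E14 and 477, 400, 423 and 364 CPM at P25. E14 WT replicate 2 was far above the other E14 libraries, yet the stages did not overlap. On the log2 scale it changed by 2.58 (SE 0.29, edgeR adjusted p = 2.95e-07) in WT and 2.68 (SE 0.30, edgeR adjusted p = 1.90e-07) in KO.

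Cntn1 (ENSMUSG00000055022, GRCm38 chromosome 15, 92051165 to 92341967, plus strand) encodes contactin-1, the partner of Caspr. It read 55.8, 19.5, 84.4 and 80.6 CPM in E14 WT and 318, 317, 325 and 222 CPM in P25 WT. At E14 the KO values were 54.1, 87.5, 52.8 and 61.0 CPM, and at P25 they were 358, 353, 269.6 and 362 CPM. Here E14 WT replicate 2 was the lowest library, and the stages again did not overlap. The fitted change, as log2, came to 2.30 (SE 0.31, edgeR adjusted p = 3.05e-06) in WT and 2.39 (SE 0.31, edgeR adjusted p = 1.93e-06) in KO.

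Nfasc (ENSMUSG00000026442, GRCm38 chromosome 1, 132564690 to 132741797, minus strand) encodes neurofascin, whose forms lie on the axon at the node and on glia at the paranode. It read 109, 215, 175 and 122 CPM in E14 WT and 562, 479, 631 and 268 CPM in P25 WT. The KO libraries gave 144, 167, 118 and 130 CPM at E14 and 545, 430, 395 and 391 CPM at P25. The lowest P25 library, WT replicate 4, was still above the highest E14 library. From E14 to P25 its change on the log2 scale was 1.64 in WT and 1.65 in KO (SE 0.25 in each), with edgeR adjusted p = 1.01e-05 and 9.58e-06.

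The nodal scaffold did not move as a unit. Sptbn4 (ENSMUSG00000011751, GRCm38 chromosome 7, 27356383 to 27447686, minus strand) encodes beta-IV spectrin, which links ankyrin-G to actin. It read 31.7, 89.7, 39.8 and 28.8 CPM in E14 WT and 162, 128, 154 and 130 CPM in P25 WT. KO ganglia had 34.5, 35.1, 37.3 and 34.6 CPM at E14 and 168, 137, 149 and 136 CPM at P25. The E14 KO libraries lay close together, while E14 WT replicate 2 was far above every other E14 library. On the log2 scale it changed by 1.60 (SE 0.26, edgeR adjusted p = 2.71e-05) in WT and 2.06 (SE 0.26, edgeR adjusted p = 1.43e-06) in KO. Without E14 WT replicate 2 the WT value was 2.10, close to the KO value.

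Ank3 (ENSMUSG00000069601, GRCm38 chromosome 10, 69398773 to 70027438, plus strand) encodes ankyrin-G, the organiser of nodes and of the axon initial segment. It read 181, 85.4, 412 and 298 CPM in E14 WT and 287, 281, 350 and 109 CPM in P25 WT. At E14 the KO values were 150, 384, 186 and 123 CPM, and at P25 they were 342, 264, 185 and 288 CPM. The stages overlapped throughout. The fitted difference between the stages, as log2, was 0.07 (95% interval -0.78 to 0.93, edgeR adjusted p = 0.891) in WT and 0.36 (-0.50 to 1.21, edgeR adjusted p = 0.468) in KO. The WT interval ran from 0.582-fold to 1.90-fold.

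Nrcam (ENSMUSG00000020598, GRCm38 chromosome 12, 44328885 to 44601964, plus strand) encodes NrCAM, the L1-family adhesion protein that binds gliomedin with neurofascin. It read 42.8, 25.1, 73.7 and 60.0 CPM in E14 WT and 73.7, 75.7, 75.5 and 53.4 CPM in P25 WT. The KO libraries gave 44.1, 59.7, 47.0 and 48.0 CPM at E14 and 86.7, 79.2, 67.3 and 81.9 CPM at P25. The stages overlapped in WT and not in KO. The log2 fold difference between the stages was 0.46 (SE 0.24, edgeR adjusted p = 0.0967) in WT and 0.66 (SE 0.24, edgeR adjusted p = 0.0207) in KO. The difference between these changes was 0.20 (SE 0.33, edgeR adjusted p = 0.993). The KO call was lost without E14 KO replicate 1 (edgeR adjusted p = 0.0576), without P25 KO replicate 1 (0.0516) and with library totals alone (0.0527), and a WT call was gained without E14 WT replicate 3 (0.0111). With offsets for transcript GC content and length Nrcam was called in WT (edgeR adjusted p = 6.11e-04), but not with the same offsets taken from transcript medians (0.527).

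**Figure D2:**
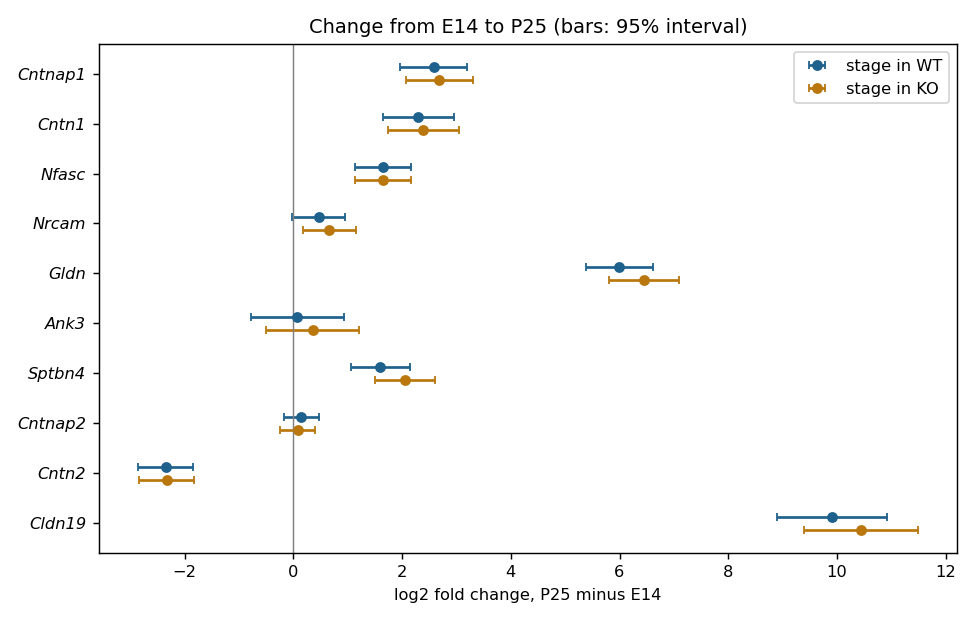
Log2 fold change from E14 to P25 for each gene, with its 95% interval, in WT (blue) and KO (brown). Cldn19 and Gldn lie furthest to the right, with Cldn19 at 9.90 in WT, and Cntn2 alone lies to the left of 0 with its whole interval.

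The juxtaparanodal pair also parted. Cntn2 (ENSMUSG00000053024, GRCm38 chromosome 1, 132509427 to 132543256, minus strand) encodes contactin-2, also called TAG-1, which marks growing axons in the embryo and later lies at the juxtaparanode. It read 1598, 4000, 2319 and 1640.2 CPM in E14 WT and 477, 502, 545 and 351 CPM in P25 WT. KO ganglia had 2336, 1981, 1769 and 2145 CPM at E14 and 420.1, 441, 359 and 416 CPM at P25. All P25 libraries were below all E14 libraries. The level fell 5.10-fold in WT and 5.03-fold in KO, with log2 fold changes of -2.35 (SE 0.24, edgeR adjusted p = 8.26e-08) and -2.33 (SE 0.24, edgeR adjusted p = 9.39e-08).

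Cntnap2 (ENSMUSG00000039419, GRCm38 chromosome 6, 45059357 to 47304213, plus strand) encodes Caspr2, the partner of contactin-2. It read 155, 116, 156 and 158 CPM in E14 WT and 178, 188, 159.5 and 122 CPM in P25 WT. At E14 the KO values were 159, 161, 148 and 160.2 CPM, and at P25 they were 166, 160.1, 156 and 182 CPM. The groups overlapped in both genotypes. The fitted difference between the stages, as log2, was 0.15 (95% interval -0.18 to 0.47, edgeR adjusted p = 0.432) in WT and 0.08 (-0.24 to 0.40, edgeR adjusted p = 0.669) in KO. Its sign turned with corrections for GC content and transcript length, as given in the closing section, and under 1 of them it was called as lower in WT.

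Levels of different genes were compared per kilobase of the longest coding transcript, as CPM per kb. At E14, Cntn2 led with 333 ± 157 CPM per kb (SD, n = 4) in WT and 287 ± 33.6 in KO, and its libraries did not overlap those of Ank3, the next gene, at 24.5 ± 14.2 and 21.2 ± 11.8 CPM per kb. The genes from Ank3 down to Sptbn4 formed a chain of neighbours with overlapping libraries in WT, and in KO Sptbn4 lay apart below Nrcam. Gldn and Cldn19 came last, at 0.120 and 0.0686 CPM per kb in WT, and overlapped each other.

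At P25 the order was different and flatter. Cntnap1 led at 88.6 ± 21.9 CPM per kb in WT and 76.4 ± 8.68 in KO. Cldn19 was second, at 68.2 ± 7.61 and 72.8 ± 23.4 CPM per kb, and Cntn2, Cntn1 and Nfasc followed, each overlapping its neighbour. In KO the libraries of Nfasc did not overlap those of Ank3, which had 27.1 ± 6.52 CPM per kb. Cntnap2 and Sptbn4 were level, at 16.5 and 16.4 CPM per kb in WT, and Nrcam and Gldn came last.

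Ratios between related genes and between binding partners were also compared. Between the contactins, per kb, the ratio of Cntn2 to Cntn1 was 22.6, 162, 21.7 and 16.1 in E14 WT and 17.9 to 34.1 in E14 KO. At P25 it was 1.18 to 1.33 in WT and 0.908 to 1.05 in KO. Between the Caspr genes, the ratio of Cntnap1 to Cntnap2 was 0.742, 2.40, 0.653 and 0.548 in E14 WT, 0.640 to 0.822 in E14 KO, 4.09 to 6.56 in P25 WT and 3.62 to 5.18 in P25 KO. E14 WT replicate 2 gave the highest value of its group for both ratios, and neither ratio overlapped between the stages in either genotype. For the paranodal partners, Cntnap1 to Cntn1, the stages overlapped in both genotypes, in WT only through E14 WT replicate 2, the highest of its group. This ratio was 1.19, 8.25, 0.697 and 0.620 in E14 WT, 1.40 to 1.91 in P25 WT, 0.767 to 1.33 in E14 KO and 1.05 to 1.63 in P25 KO. For the juxtaparanodal partners, Cntnap2 to Cntn2, it was 0.0212 to 0.0708 in E14 WT and 0.214 to 0.274 in P25 WT, and 0.0497 to 0.0610 and 0.265 to 0.319 in KO, with no overlap between the stages. For Sptbn4 to Ank3 the ratio ran from 0.110 to 1.20 in E14 WT and from 0.502 to 1.36 in P25 WT, and these ranges overlapped only through E14 WT replicate 2, the highest of its group.

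**Figure D3:**
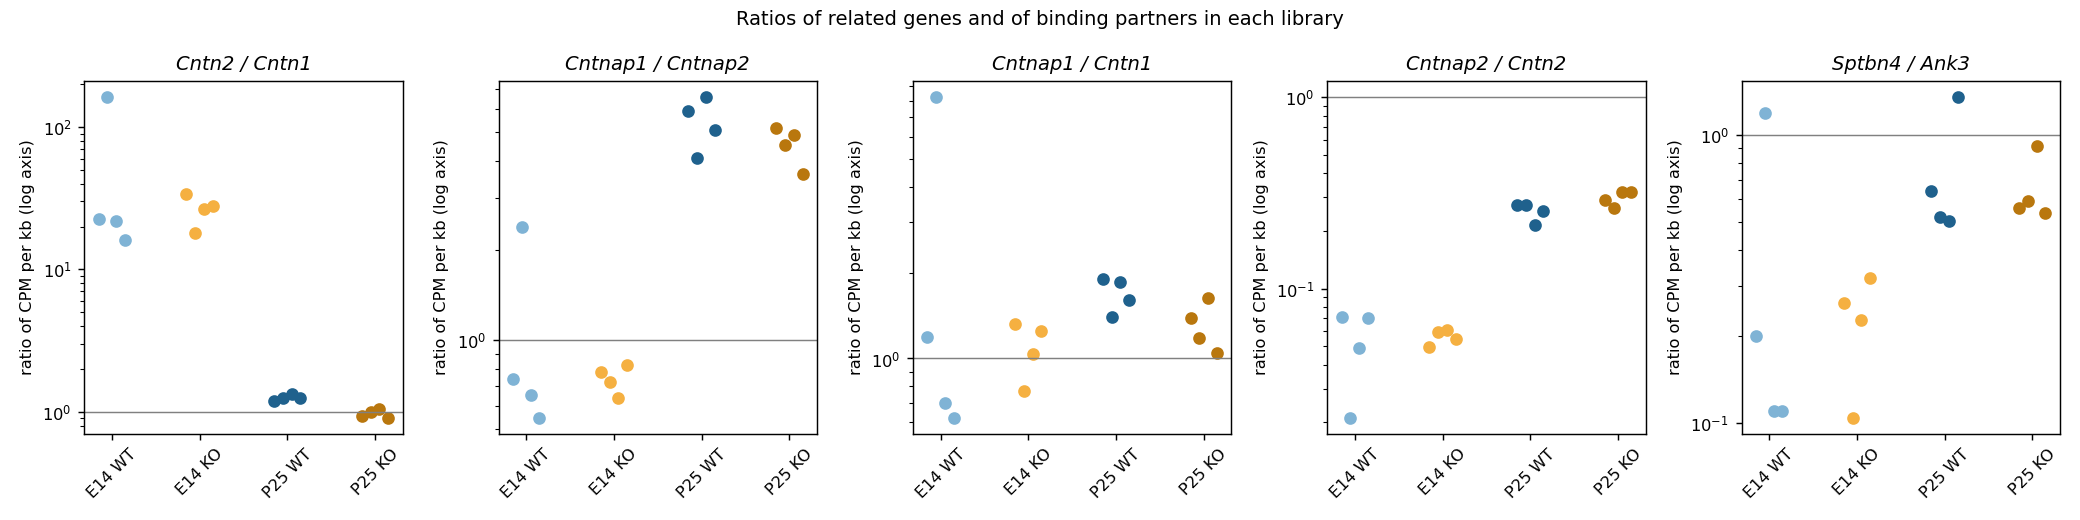
Ratio of the levels of related genes (Cntn2 to Cntn1, Cntnap1 to Cntnap2) and of binding partners (Cntnap1 to Cntn1, Cntnap2 to Cntn2, Sptbn4 to Ank3), each in CPM per kb, in every library on a logarithmic axis; the grey line marks a ratio of 1. Cntn2 exceeds Cntn1 in all E14 libraries by at least 16.1 to 1 and is near 1 at P25, and Cntnap1 is above Cntnap2 in all P25 libraries. The stages overlap for Cntnap1 to Cntn1, in WT only through E14 WT replicate 2.

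No member was called between the genotypes. At E14, 0 of the 10 members were called, beside 0.0199% of all genes, and 0 members had an unadjusted p under 0.05, where 735 genes did. At P25, 0 of the 10 were called, beside 0.0463% of all genes, and again 0 had an unadjusted p under 0.05, where 282 genes did. Chance alone would put about 755 of all genes tested under 0.05, more than this fit found at either stage. The number depended on the processing. With GC and length offsets it was 1287 at E14 and 653 at P25, and without E14 WT replicate 2 it was 1068 and 603. With only the libraries compared it was 242 and 800. DESeq2 also called 0 members at each stage. The smallest edgeR adjusted p among the members was 0.942 at E14 and 1 at P25. WT and KO libraries overlapped for all 10 members at both stages, whereas they did not overlap for 1.63% of all genes at E14 and 3.32% at P25.

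The intervals give the size of genotype effect that these libraries leave possible. At P25 the 95% intervals of all 10 members lay within a 2-fold change either way. The narrowest was that of Cntnap2, whose log2 fold change, KO minus WT, was 0.04 (95% interval -0.28 to 0.36), and the highest upper limit was that of Ank3, at 0.07 (-0.78 to 0.93). Cntnap1 had a mean of 482 ± 119 CPM (SD, n = 4) in WT and 416 ± 47.2 CPM in KO, with a log2 difference of -0.21 (-0.79 to 0.37). Gldn stood at 36.2 ± 10.1 and 41.2 ± 9.85 CPM, a log2 fold change of 0.19 (-0.27 to 0.65). Cldn19 stood at 284 ± 31.7 and 303 ± 97.5 CPM, a log2 fold change of 0.09 (-0.53 to 0.72), and its KO libraries spread more widely than its WT libraries.

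At E14 the intervals of 7 members lay within a 2-fold change, and those of Gldn, Ank3 and Cldn19 did not. Cldn19, with its few counts, had the widest, at -0.45 (95% interval -1.91 to 1.01). Sptbn4 had the smallest unadjusted p, 0.114 in edgeR, with 47.5 ± 28.5 CPM (SD, n = 4) in WT and 35.4 ± 1.30 CPM in KO, with a log2 difference of -0.42 (-0.96 to 0.11). Without E14 WT replicate 2 this value was 0.08. The value of Cntnap1 moved in the same way, from -0.32 with that library to 0.21 without it, as did Cntn2, from -0.22 to 0.15, and Nfasc, from -0.15 to 0.05, while Cntn1 went from 0.09 to -0.20. None of these values was called.

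The test of whether the genotype difference changed between the stages called 0 of the 10 members and 0% of all genes. Of all genes, 647 had an unadjusted p under 0.05 in this test, fewer than the 755 of chance alone, and of the members 0. The number for all genes was 1174 with GC and length offsets and 1360 without E14 WT replicate 2. DESeq2 called 8 genes and 0 members. The members' values ran from -0.06 for Cntnap2 to 0.54 for Cldn19, with a smallest edgeR adjusted p of 0.993.

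**Figure D4:**
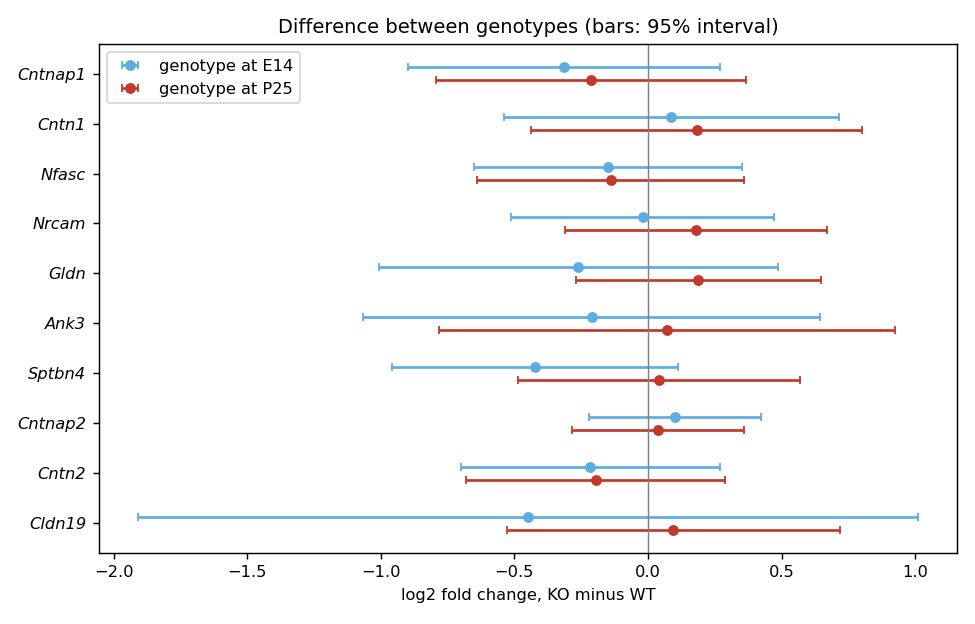
Log2 fold change between the genotypes, KO minus WT, for each gene with its 95% interval, at E14 (light blue) and P25 (red). All 20 intervals include 0, and Cldn19 at E14 has the widest.

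In E14 WT replicate 2 the members' deviations differed with the GC content of their transcripts. All 5 members above 50% GC were higher in it, and 4 of the 5 below 50% were lower. Compared with the mean log2 CPM of the other 3 E14 WT libraries, Cntnap1 was higher by 1.47, Sptbn4 by 1.43, Cntn2 by 1.13, Cldn19 by 0.97 and Nfasc by 0.70. These genes have a GC content of 53.8% to 63.7%. Cntn1 fell by 1.89, Ank3 by 1.72, Nrcam by 1.19 and Cntnap2 by 0.43 against those libraries, with a GC content of 43.6% to 48.3%. Gldn, at 46.2% GC, did not follow, with a difference of 0.0042. The Cldn19 value rests on few counts, 8, 7, 0 and 8 in E14 WT replicates 1 to 4. With the 0 in replicate 3, its deviation was also 0.73 in replicate 1 and 0.66 in replicate 4. Across the 10 genes of E14 WT replicate 2, Cldn19 included, the correlation of deviation with GC content was 0.84, given as a description. It was -0.79 in E14 WT replicate 4 and -0.77 in P25 WT replicate 2, so a strong relation was not particular to this library. Each deviation is taken from the other 3 libraries of the group, so values within a group depend on each other. In P25 WT replicate 4 all 10 members were lower than in the other 3 P25 WT libraries, from 0.09 lower for Cldn19 to 1.48 lower for Ank3 on the log2 scale. The part of RNA quality in these shifts was not tested. The 7 WT stage calls were all kept without E14 WT replicate 2 and without P25 WT replicate 4.

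**Figure D5:**
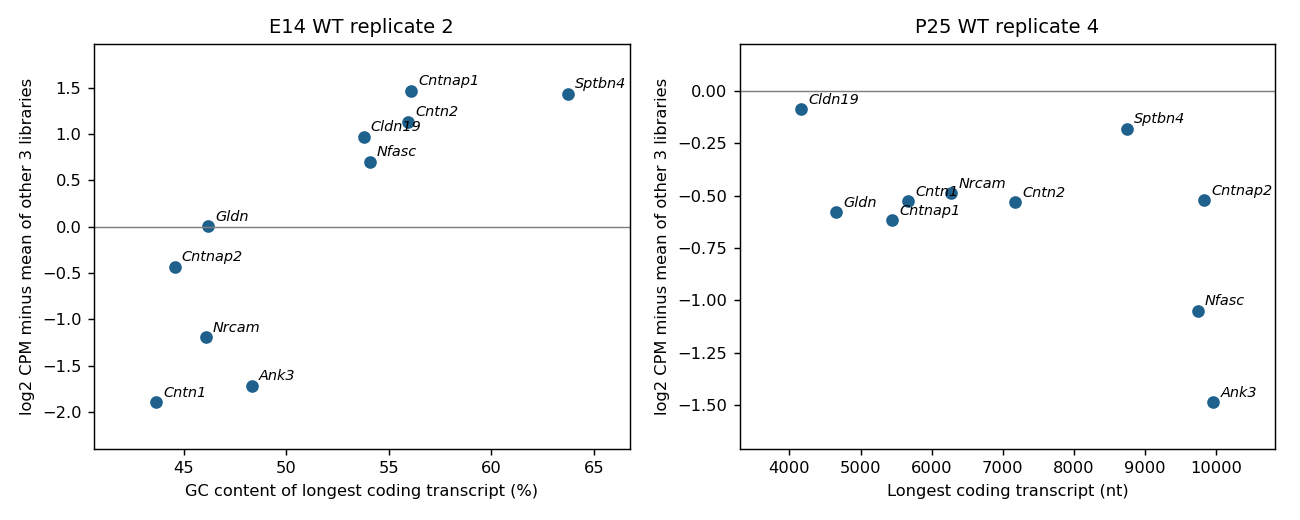
Deviation of each gene in a library from the mean of the other 3 libraries of its group, in log2 CPM, against transcript GC content for E14 WT replicate 2 (left) and against transcript length for P25 WT replicate 4 (right). On the left, genes above 50% GC lie above 0; on the right all 10 genes lie below 0.

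Genes that work beside the members changed in several directions between E14 and P25. Of 16 nodal ion channels and their partners, 8 were called as higher and 5 as lower in WT. Here and in the lists that follow, 29.7% of all genes were called as higher and 29.8% as lower in WT, and the lists were not tested as sets. The shares of channels called as lower and of membrane skeleton genes called as higher lay near these values. Scn4b, a sodium channel beta subunit, rose from 3.60 ± 2.90 to 751 ± 73.0 CPM (SD, n = 4, log2 fold change 7.73, edgeR adjusted p = 9.82e-12). Slc8a2, a sodium-calcium exchanger, fell from 195 ± 83.8 to 11.6 ± 3.39 CPM. Of 14 genes of the juxtaparanodal potassium channel complex, 12 were called as higher and 1 as lower, with Lgi3 rising from 10.5 ± 3.32 to 408 ± 31.6 CPM and the channel subunit Kcna6 falling from 521 ± 173 to 215 ± 26.2 CPM. Of the 12 other genes of the axonal membrane skeleton, 4 were higher and 1 was lower. Sptbn5, another beta spectrin, rose from 0.538 ± 0.377 to 37.0 ± 11.1 CPM, and Add1, which encodes alpha-adducin, fell from 801 ± 238 to 598 ± 69.7 CPM (edgeR adjusted p = 0.0437). In KO, Add1 was not called (edgeR adjusted p = 0.0656).

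The lists of glial genes were read against the same shares of all genes. Of 19 tested genes of Schwann cell microvilli and the perinodal matrix, 11 were called as higher and 3 as lower in WT. Bcan, which encodes the matrix proteoglycan brevican, rose from 5.73 ± 2.62 to 157 ± 43.0 CPM, while Vcan, which encodes versican, fell from 24.1 ± 13.9 to 2.30 ± 0.729 CPM. Of 19 genes of noncompact myelin and axon-glia adhesion, 13 were higher and 2 lower, and Gjb1, which encodes the gap junction protein connexin 32, rose from 0.226 ± 0.259 to 44.3 ± 3.05 CPM. The adhesion gene Cadm2 fell from 26.5 ± 12.1 to 11.4 ± 1.73 CPM. Of 21 compact myelin genes and regulators, 15 were higher and 4 lower, led by Pmp2, a lipid-binding protein of peripheral myelin, at 0.0252 ± 0.0295 and 37.7 ± 9.23 CPM. Erbb2, a receptor subunit for neuregulin, fell from 62.3 ± 24.7 to 30.6 ± 2.82 CPM in WT (edgeR adjusted p = 2.09e-04) and was not called in KO (edgeR adjusted p = 0.0835). The difference between the genotypes in these changes was not called for any gene.

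Relatives of the members outside the nodal set were called in both directions, as all genes were. Of 15 other contactins, contactin-associated proteins and L1-family genes with their partners, 5 were called as higher and 6 as lower in WT. These counts lay near the shares of all genes, 29.7% as higher and 29.8% as lower. The L1-family gene Chl1 rose from 6.93 ± 4.11 to 37.7 ± 9.29 CPM, and Olfm2, an olfactomedin gene, fell from 81.2 ± 34.5 to 32.6 ± 5.30 CPM. The median log2 fold change of this list was 0.20 in WT, against 1.67 for the juxtaparanodal list, 0.73 for the nodal channels and 5.05 for compact myelin. None of the genes in the 7 lists was called between the genotypes at either stage.

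The genes whose levels most resembled those of the members over the 16 libraries were found by Pearson's correlation of log2 CPM, as a description in which the difference between the stages and the shared libraries weigh most. For Gldn these were Pmp2 (r = 0.996), Slco1a4 (0.996) and Bcas1 (0.996), and for Cldn19 they were Serping1 (0.995), Tuba4a (0.994) and Col5a3 (0.994). Cntn1 was nearest to Fut8, Nfasc to Gfod1, Nrcam to Ttbk2, Ank3 to Prrc2c, Sptbn4 to Tmem104 and Cntn2 to Rims3, with r from 0.985 to 0.9945. The nearest gene to Cntnap2 was Adgrb3 at r = 0.867.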

How the data were processed

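Whole trigeminal ganglia were sequenced from stranded polyadenylated RNA libraries, per the labels' protocols. The authors deposited estimated counts for each gene, rounded to integers. Tools named in the submitters' processing notes were kallisto 0.46, fastp 0.20.0 and DESeq2 1.32.0, with GRCm39 as the assembly. The strand setting is not given in the sources used here. Gene positions and transcript lengths came from GENCODE on GRCm38, and promoters from RefSeq on GRCm38.p6.

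Counts were rounded, scaled by TMM and tested in edgeR 4.0.16 (R 4.3.3) with the quasi-likelihood F test in 1 fit of 16 libraries with a mean per group. The filterByExpr filter left 15109 genes, over which p-values were adjusted by Benjamini-Hochberg and called under 0.05. SEs came from the F statistic, and intervals cover 95%. Groups and replicate numbers came from the titles. The labels state 4 animals per group, but a pair of E14 libraries in each genotype share a number as left and right ganglia, so some may share an animal, and p-values measure the spread between ganglia. Counting floors cover counting error only.

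All 10 members were named. From each of 7 pathway lists, the called gene with the largest WT rise and that with the largest fall at a mean of at least 10 CPM were named, with any gene called by genotype. The other 9 lists hold cell type markers. A marker of myelinating Schwann cells and the nearest gene to Cntnap1 are not reported here. The members and lists were chosen with earlier results of these data known.

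Alternatives were scaling by RLE or by library totals only, DESeq2 1.42.0, a stricter low-count filter or none, the replicate block, summed same-numbered ganglia, only the libraries compared, GC and length offsets with and without the block, and leaving out each library. The offsets use the longest coding transcript. This choice was made after results with transcript medians had been seen, and both are reported. Of 7 promoter motifs, 1 was added after the other 6 had been searched. The fit was tested on simulated data. Figures were drawn with matplotlib 3.10.9.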

Additional observations from a re-analysis of the deposited data

Results flagged for a closer look

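In 6 of 40 sets of 4 libraries, each set being 1 gene in 1 group, a single library lay beyond Dixon's 95% limit. This limit is on the gap as a share of the range, and chance alone passes it in about 1 of 20 independent sets. The 40 sets share libraries and are not independent, so the count of 6 was not tested against that rate. Cntnap1 was highest in E14 WT replicate 2 at 154 CPM, and Cntnap2 was lowest in the same library at 116 CPM. Cntn1 was lowest in P25 WT replicate 4 at 222 CPM, as was Nrcam at 53.4 CPM. Cntn1 was also lowest in P25 KO replicate 3 at 269.6 CPM, and Cntnap2 in E14 KO replicate 3 at 148 CPM. Of these 6, 4 were in the pair of libraries with the strongest trends on GC content and length, and the part of those trends was not tested.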

How the results depend on the processing

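Among 27 alternatives, 16 of which left out 1 library, the counts of called members stayed at 7 or 8 in WT and in KO between the stages and at 0 in the genotype comparisons and the test of their difference. The stage calls of Cldn19, Gldn, Cntnap1, Cntn1, Nfasc, Sptbn4 and Cntn2 were kept under all of them. The call of Nrcam was not, and its values are given in the report.

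The offsets for GC content and length were first computed from the median length and median GC content of a gene's coding transcripts. The longest coding transcript was put in their place after results under the medians had been seen, because fragment transcripts set several medians. The medians are therefore an alternative added after seeing the data. In the WT stage change they called 8 members, 6 as higher and 2 as lower, where the longest transcript gave 8, 7 as higher and 1 as lower. Cntnap2 was the additional member called as lower (-0.33, edgeR adjusted p = 0.0499), and it was not called with the longest transcript (0.09, 0.679). Offsets from the longest transcript moved the median of all genes to -0.16 in WT and -0.21 in KO and the share of calls higher at P25 from 49.9% to 42.8% in WT and from 51.2% to 40.9% in KO.

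Counts over all genes moved more. At E14, 3 genes were called between the genotypes, 5 with DESeq2, 5 with the offsets and 1 to 5 with 1 library left out. At P25, 7 were called, 17 with DESeq2, 12 with the offsets of either kind, 11 with same-numbered ganglia summed, 3 with only the libraries compared, 3 with the replicate block and 3 to 14 with 1 library left out. The test of the difference called 0, 8 with DESeq2 and 0 to 7 with 1 library left out.

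The replicate block, which takes the replicate number as a pairing, called 7 members in WT and 8 in KO between the stages. Libraries were compared by Pearson's correlation of log2 CPM after the mean of each gene's own group was subtracted. Over 16 pairs of groups and numbers, the correlation of same-numbered libraries ran from -0.39 to 0.22. It was over 0.1 in 4 and highest for the own number in 4, and the main fit used no pairing. On the same measure, left and right E14 ganglia with 1 library number correlated at -0.79 in WT and -0.35 in KO. The WT pair holds E14 WT replicate 2. Subtracting a mean of 4 libraries by itself pulls correlations within a group below 0. These values therefore do not show whether the ganglia of a pair share an animal.

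Some values that were not called changed sign, and the cause was not tested. With GC and length offsets, the KO stage change was -0.18 for Cntnap2, the E14 genotype difference was 0.086 for Cntn2, 0.15 for Nfasc and 0.077 for Nrcam, the P25 genotype difference was -0.13 for Cntnap2 and -0.23 for Sptbn4 and the difference of differences was -0.10 for Cntn1, -0.37 for Cntn2, -0.22 for Cntnap1, -0.36 for Nfasc and -0.20 for Sptbn4. With the replicate block and these offsets together, the KO stage change was -0.17 for Cntnap2, the E14 genotype difference was 0.11 for Cntn2, 0.14 for Nfasc and 0.084 for Nrcam, the P25 genotype difference was -0.12 for Cntnap2 and -0.23 for Sptbn4 and the difference of differences was -0.11 for Cntn1, -0.39 for Cntn2, -0.24 for Cntnap1, -0.35 for Nfasc and -0.21 for Sptbn4. With the replicate block alone, the E14 genotype difference was 0.0084 for Nrcam and the difference of differences was -0.039 for Cntn2. With offsets from transcript medians, the WT stage change was -0.33 for Cntnap2, the KO stage change was -0.27 for Cntnap2, the E14 genotype difference was -0.040 for Cntnap2 and 0.052 for Nfasc, the P25 genotype difference was -0.12 for Sptbn4 and the difference of differences was -0.15 for Cntn1, -0.077 for Cntn2, -0.23 for Cntnap1, 0.054 for Cntnap2, -0.21 for Nfasc and -0.031 for Sptbn4. With library totals alone, the WT stage change was -0.067 for Ank3. With same-numbered E14 ganglia summed, the WT stage change was -0.030 for Ank3 and the difference of differences was -0.14 for Cntn2, -0.14 for Cntnap1 and -0.11 for Nfasc. Without a low-count filter, the difference of differences was -0.024 for Cntn2 and -0.023 for Nfasc. With the stricter filter, the difference of differences was -0.019 for Cntn2 and -0.018 for Nfasc. With 1 library left out, signs changed for these genes. For the WT stage change the ranges were -0.21 to 0.49 for Ank3. For the E14 genotype difference the ranges were -0.64 to 0.18 for Ank3, -0.20 to 0.31 for Cntn1, -0.31 to 0.15 for Cntn2, -0.44 to 0.21 for Cntnap1, -0.25 to 0.048 for Nfasc, -0.24 to 0.24 for Nrcam and -0.54 to 0.082 for Sptbn4. For the P25 genotype difference the ranges were -0.18 to 0.26 for Ank3, -0.10 to 0.27 for Cldn19, -0.077 to 0.12 for Cntnap2, -0.34 to 0.012 for Nfasc and -0.026 to 0.10 for Sptbn4. For the difference of differences the ranges were -0.10 to 0.72 for Ank3, -0.12 to 0.39 for Cntn1, -0.35 to 0.12 for Cntn2, -0.42 to 0.23 for Cntnap1, -0.18 to 0.032 for Cntnap2, -0.19 to 0.16 for Nfasc, -0.060 to 0.42 for Nrcam and -0.040 to 0.59 for Sptbn4.

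The counts limit Cldn19 and Gldn at E14, where the intervals of the genotype difference reached beyond a 2-fold change.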

Other observations

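Beyond the comparisons above, the ratio of Cntn2 to Cntn1 per kb did not overlap between the genotypes at P25, at 1.25 ± 0.0579 (SD, n = 4) in WT and 0.970 ± 0.0652 in KO. This was noticed among 12 ratios compared between the genotypes, 6 at each stage. The exact two-sided permutation test gave p = 0.0286, the smallest that 4 against 4 libraries allow, and the Benjamini-Hochberg value over the 12 tests was 0.343, so the difference did not pass the correction. At E14 the same ratio overlapped (exact permutation p = 0.943).

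The members' spread between libraries differed by group. The median coefficient of variation of the 10 members was 48.4% in E14 WT, 14.5% in E14 KO, 18.0% in P25 WT and 12.2% in P25 KO. Over the 9873 genes averaging 10 CPM or more it was 26.9% in E14 WT and between 11.6% and 16.8% in the other 3 groups.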
